A study of Drosophila melanogaster with 12 samples.

Results

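Brain tumor (BRAT) and Pumilio (PUM) are RNA-binding proteins that repress maternal mRNAs in the early Drosophila embryo. BRAT belongs to the TRIM-NHL family, whose NHL domain forms a propeller that contacts RNA, and PUM is the founding member of the PUF family, whose repeats each read a base of the target. Both act with Nanos on hunchback mRNA, and both take part in the maternal-to-zygotic transition, when stored maternal transcripts are cleared and the embryo's own genome is switched on. The transcripts described here are those that moved in opposite directions when the 2 proteins were pulled down: 94 transcripts with more signal in the BRAT RIP and less in the PUM RIP than in the control RIP, and 55 with more signal in the PUM RIP and less in the BRAT RIP, 149 of the 7186 with values in all 12 columns. A RIP is an RNA co-immunoprecipitation, here read out on a microarray.

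All groups came from embryos of the w1118 strain, an eye-colour mutant used as a laboratory standard, collected 0 to 3 h after egg-laying. The groups were the BRAT RIP and the PUM RIP, made with synthetic antibody fragments (Fabs) against the endogenous proteins, and the control RIP, made with a Fab that served as the negative control. Each was done in 3 biological replicates. The same 3 control preparations were deposited in 2 copies, 1 normalized with the BRAT RIPs and 1 with the PUM RIPs, so that both comparisons share their controls. In every group replicate 3 carried Cy5 and replicates 1 and 2 carried Cy3. Whole embryos were extracted, so recovery from part of the embryo and weaker recovery from all of it cannot be told apart. Neither can direct contact with the protein and recovery in a complex with it.

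The members were chosen by their values in these same RIPs. For each transcript the log2 signal of the control replicate was subtracted from that of the RIP replicate with the same number, which gave 3 BRAT ratios and 3 PUM ratios. A member had a mean ratio of at least 1.5-fold (0.585 on the log2 scale) in 1 RIP with its 3 ratios above 0, and a mean ratio at least as far below 0 in the other RIP with its 3 ratios below 0. Everything that follows on these ratios is therefore a description, and no test is given for it. The columns within a group correlated at r of 0.926 to 0.968 across the 7186 transcripts, and the column medians ran from 11.59 to 11.65 for columns normalized with BRAT and from 11.83 to 11.86 for those normalized with PUM.

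Transcripts are named by their FlyBase identifiers, as the array table pairs them with no gene symbols. Of the 149 members, 1 was matched to genes: FBtr0084877 is listed by RefSeq among the synonyms of both CG5116 and CG42488, a pair of reading frames on the same transcript. FBtr0084877 had BRAT ratios of 0.78, 0.62 and 0.88 and PUM ratios of -0.39, -1.04 and -1.19. It had more signal in every BRAT RIP than in its control and less in every PUM RIP. Lists of named genes (Nanos and hunchback regulation, germ plasm, cell cycle, zygotic genes and tissue markers) could not be applied to the other members, and the labelled tissue could not be checked against its markers for the same reason.

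Of the 1391 transcripts that met the BRAT side of the rule by being higher, the 94 that were also lower with PUM made up 6.76%, while 6.58% of all transcripts met that PUM side. Of the 473 on that PUM side the 94 were 19.9%, while 19.4% of all transcripts met the BRAT side. The number of members in this direction was thus close to the share over all transcripts. Of the 745 that were higher with PUM, the 55 that were also lower with BRAT made up 7.38%, while 21.2% of all transcripts met that BRAT side. Of the 1526 on that BRAT side the 55 were 3.6%, while 10.4% of all transcripts met the PUM side. In this direction the number of members was below the share over all transcripts. The 2 comparisons share their controls, and neither share was tested. Other scalings changed these numbers: centring each replicate on its median gave 107 and 32 transcripts, and a single distribution over all 9 preparations gave 146 and 58.

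**Figure D1:**
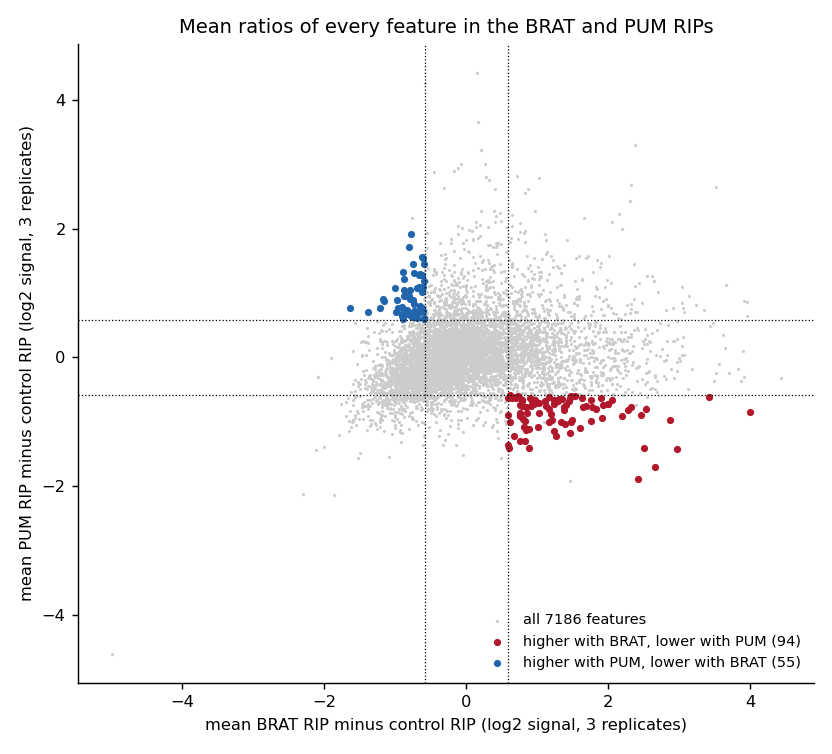
Mean BRAT ratio (x axis, log2 RIP minus control RIP over 3 replicates) against mean PUM ratio (y axis, same scale) for the 7186 transcripts, each a point, with dotted lines at 1.5-fold. The 94 members at the lower right reach a BRAT ratio of 4.00, the 55 at the upper left reach a PUM ratio of 1.91, and the 7 and 4 grey points in these corners had a replicate of the other sign.

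Among the 94, mean BRAT ratios lay between 0.59 and 4.00 with a median of 1.20, and mean PUM ratios lay between -1.89 and -0.59 with a median of -0.78. The medians over all transcripts were -0.15 for BRAT and 0.01 for PUM. The BRAT ratio was the larger of the 2 in size in 75 of the 94 (79.8%), against 68.6% of all transcripts. It was at least 2-fold in 56 members, while the PUM ratio was at least 2-fold in size in 23, and 13 members passed 2-fold in both.

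The 55 had mean PUM ratios between 0.59 and 1.91 with a median of 0.89, and mean BRAT ratios between -1.64 and -0.59 with a median of -0.77. Here the BRAT ratio was the larger in size in 20 members (36.4%). The PUM ratio was at least 2-fold in 20 and the BRAT ratio at least 2-fold in size in 5, and no member passed 2-fold in both. The distance between the 2 mean ratios ran from 1.20 to 4.85 in the 94 and from 1.20 to 2.68 in the 55.

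In the 94 the median log2 signal was 13.91 in the BRAT RIP, against 12.63 in its control, and 11.85 in the PUM RIP, against 12.86 in its control. In the 55 it was 12.82 in the PUM RIP, against 11.83 in its control, and 10.84 in the BRAT RIP, against 11.59 in its control.

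FBtr0078709 had the largest of the smaller ratios among the 94. Its log2 signal was 14.52, 15.25 and 14.84 in the BRAT RIPs, against 12.38, 12.52 and 12.46 in the controls of that set. In the PUM RIPs it was 10.65, 11.30 and 9.88, against 12.38, 12.50 and 12.62 in the controls. All 3 BRAT RIPs lay above all controls and all 3 PUM RIPs below them, with the lowest signal in PUM replicate 3. The mean ratios were 2.42 ± 0.30 for BRAT and -1.89 ± 0.78 for PUM (SD, n = 3).

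FBtr0072225 was close to the top of the scale in the BRAT RIPs, at 15.77, 15.99 and 15.55, against 13.00, 13.02 and 13.31 in the controls. The PUM RIPs gave 11.99, 12.51 and 9.81, against 13.10, 13.18 and 13.14 in the controls. No group overlapped, but PUM replicate 3 was far below the other PUM replicates, and the mean PUM ratio of -1.71 had an SD of 1.42 (n = 3) and was -0.90 without replicate 3. The highest value in the whole table is also 15.99, and saturation was not assessed here. A signal over 15.9 in some BRAT replicate was found in 2 of the 94 members and in none of the 55.

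FBtr0073827 gave nearly equal BRAT RIP signals, 14.70, 14.71 and 14.71, against 11.53, 11.96 and 11.72 in the controls. Its PUM RIP signals were 10.85, 11.12 and 9.84, against 11.83, 12.22 and 12.05 in the controls. Here too PUM replicate 3 was the lowest, and neither RIP overlapped its controls. The ratios averaged 2.97 ± 0.21 for BRAT and -1.43 ± 0.68 for PUM (SD, n = 3).

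FBtr0082865 had BRAT RIP signals of 15.73, 15.87 and 15.46, against 13.61, 13.38 and 12.57 in the controls. Its PUM RIP signals of 12.50, 12.20 and 10.82 stood against 13.67, 13.40 and 12.69 in the controls. Replicate 3 was the lowest in the RIPs and in the controls, and the ratios averaged 2.50 ± 0.38 for BRAT and -1.41 ± 0.40 for PUM (SD, n = 3). FBtr0072163 had 15.49, 15.42 and 15.41 in the BRAT RIPs, against 14.12, 14.20 and 14.20 in the controls, and 13.30, 13.37 and 12.66 in the PUM RIPs, against 14.27, 14.37 and 14.35. Its BRAT ratio of 1.26 had an SD of 0.08 (n = 3).

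FBtr0087729 was one of the named members whose PUM ratios stayed close together in all replicates. The BRAT RIPs gave 13.53, 13.97 and 14.21, against 12.01, 12.49 and 12.84 in the controls, and the PUM RIPs gave 11.06, 11.67 and 11.70, against 12.13, 12.67 and 13.14. Replicate 1 was the lowest in both RIPs and in the controls, and the ratios within a number were 1.46 ± 0.08 for BRAT and -1.17 ± 0.23 for PUM (SD, n = 3).

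Of the other members with the largest smaller ratio, FBtr0070723 averaged 1.24 ± 0.27 for BRAT and -1.14 ± 0.51 for PUM (SD, n = 3), and FBtr0112911 averaged 1.60 ± 0.41 and -1.10 ± 0.62. FBtr0087622 averaged 1.39 ± 0.34 for BRAT and -1.04 ± 0.28 for PUM, FBtr0073577 1.16 ± 0.42 and -1.01 ± 0.08, and FBtr0079332 1.01 ± 0.36 and -1.09 ± 0.09. FBtr0073577 and FBtr0079332 thus had the narrowest PUM ratios among these 12. FBtr0078010 had the opposite character: its PUM ratios were -0.72, -0.06 and -2.26, and its mean of -1.01 was -0.39 without replicate 3.

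The largest distance between the 2 mean ratios belonged to FBtr0074464. Its signal was 14.58, 14.19 and 14.25 in the BRAT RIPs, against 10.52, 10.00 and 10.51 in the controls. In the PUM RIPs it was 9.72, 9.51 and 9.13, against 10.50, 10.01 and 10.40 in the controls. The BRAT signal stood 4.00 ± 0.23 above the controls on the log2 scale, and the PUM signal 0.85 below them (mean ratio -0.85 ± 0.39, SD, n = 3). FBtr0073827, FBtr0072225 and FBtr0078709 came next, with BRAT ratios of 2.97, 2.66 and 2.42.

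**Figure D2:**
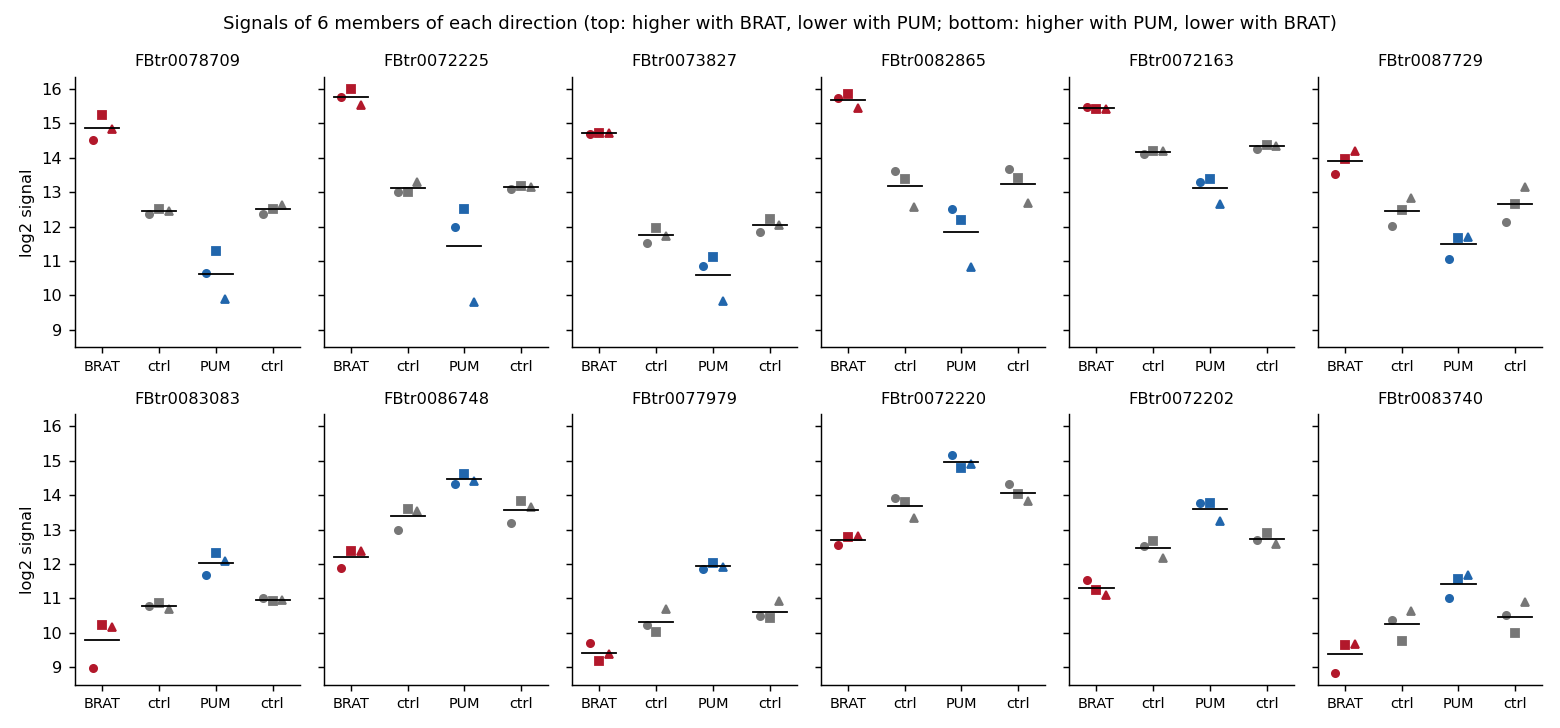
Log2 signal (y axis) of 6 members of each direction, those with the largest smaller ratio, in the BRAT RIP, its control (ctrl), the PUM RIP and its control, with circles, squares and triangles for replicates 1, 2 and 3 and bars for the means of 3. In the upper row BRAT points lie above the controls and PUM points below them, with PUM replicate 3 of FBtr0072225 at 9.81, and in the lower row the order is turned.

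In the other direction, FBtr0083083 had the largest smaller ratio. Its signal was 11.68, 12.32 and 12.08 in the PUM RIPs, against 11.01, 10.92 and 10.95 in the controls. In the BRAT RIPs it was 8.97, 10.23 and 10.15, against 10.77, 10.87 and 10.70 in the controls. Neither RIP overlapped its controls, and BRAT replicate 1 was the lowest. The PUM ratio averaged 1.07 ± 0.37 (SD, n = 3), and the BRAT ratios were -1.80, -0.64 and -0.55.

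FBtr0086748 had PUM RIP signals of 14.33, 14.63 and 14.42, against 13.18, 13.84 and 13.67 in the controls, and BRAT RIP signals of 11.89, 12.37 and 12.38, against 13.00, 13.61 and 13.54. Its BRAT ratios were -1.12, -1.24 and -1.15, with an SD of 0.06 (n = 3). FBtr0072202 was similar, with 13.78, 13.77 and 13.24 in the PUM RIPs, against 12.69, 12.90 and 12.59 in the controls, and 11.53, 11.25 and 11.10 in the BRAT RIPs, against 12.53, 12.66 and 12.18. FBtr0072220 had 15.17, 14.80 and 14.90 in the PUM RIPs, against 14.33, 14.03 and 13.84 in the controls, and 12.55, 12.79 and 12.80 in the BRAT RIPs, against 13.91, 13.79 and 13.35. No RIP overlapped its controls in these 3 members.

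FBtr0077979 and FBtr0083740 had no overlap either, with a narrower gap in FBtr0083740. FBtr0077979 had 11.85, 12.02 and 11.92 in the PUM RIPs, against 10.48, 10.44 and 10.93 in the controls, and 9.71, 9.18 and 9.37 in the BRAT RIPs, against 10.23, 10.02 and 10.68. FBtr0083740 had PUM ratios of 0.50, 1.58 and 0.81 and BRAT ratios of -1.52, -0.13 and -0.97. Its ratios kept their signs with a wide spread: replicate 2 was the highest for PUM and nearest to 0 for BRAT, where its control (9.76) was lower than the other controls (10.36 and 10.64).

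The remaining members with the largest smaller ratio were alike in size. PUM ratios averaged 1.21 ± 0.11 in FBtr0070950, 1.04 ± 0.30 in FBtr0072767, 0.96 ± 0.18 in FBtr0081498 and 0.93 ± 0.19 in FBtr0086946 (SD, n = 3), with BRAT ratios of -0.87 ± 0.12, -0.87 ± 0.45, -0.84 ± 0.08 and -0.81 ± 0.05 in the same order. FBtr0084555 had the widest PUM spread of the 12, with PUM ratios of 0.09, 1.08 and 1.69 and BRAT ratios of -1.02, -0.07 and -1.30. A single replicate came close to 0 in each of its RIPs.

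The largest distances between the ratios in this direction, 2.68 and 2.51, were those of FBtr0073346 and FBtr0087603. FBtr0073346 had 13.01, 13.44 and 14.06 in the PUM RIPs, against 11.08, 11.83 and 11.88 in the controls, and 10.30, 10.65 and 11.18 in the BRAT RIPs, against 11.00, 11.63 and 11.84. FBtr0087603 had 14.00, 14.60 and 14.41 in the PUM RIPs, against 11.89, 13.14 and 12.84 in the controls, and 10.58, 11.84 and 11.83 in the BRAT RIPs, against 11.53, 12.64 and 12.46. In both, replicate 1 was the lowest in the controls and in both RIPs, and BRAT and control values overlapped although every pair had the same sign. FBtr0084664 came to its distance of 2.40 from the other side, with the largest BRAT decrease of the 55: 10.64, 10.96 and 11.21 in the BRAT RIPs, against 12.52, 12.43 and 12.79 in the controls (mean ratio -1.64 ± 0.21, SD, n = 3), beside a PUM ratio of 0.76 ± 0.08.

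RIP and control values did not overlap in most members, but this differed between the RIPs. Among the 94, all BRAT RIPs lay above all controls in 92 members, where 19.8% of all transcripts did so, and all PUM RIPs lay below all controls in 75, where 11.6% of all transcripts did so. Among the 55, all PUM RIPs lay above the controls in 50 (12.5% of all transcripts) and all BRAT RIPs below them in 43 (25.9% of all transcripts). These are the contrasts that the members were selected on, and nothing is read from the difference to the background.

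The same holds for the calls of a fit over all transcripts (limma with the replicate number as a block, an adjusted p under 0.05 and at least 1.5-fold). The BRAT RIP was called higher in all 94 of the first direction, against 19.1% of all transcripts, and the PUM RIP was called lower in 45 of them, against 3.58%. Of the 55, the PUM RIP was called higher in 36, against 6.96% of all transcripts, and the BRAT RIP was called lower in all 55, against 21.1%. The members called in both RIPs were therefore 45 and 36. FBtr0072225 and FBtr0078010 of the first direction, and FBtr0084555 and FBtr0080287 of the second, were named members not called in the PUM RIP. These 2 counts depend on the fit: they were 9 and 6 with no replicate block and 1 and 7 without replicate 1. They were 37 and 19 without replicate 2, and 20 and 32 without replicate 3. The PUM calls over all transcripts fell as well. The PUM RIP was called lower in 257 transcripts in the main fit and in 66 with no replicate block. Without replicates 1, 2 and 3 it was called lower in 13, 151 and 147. It was called higher in 500, 197, 99, 360 and 429, in the same order.

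The replicates did not share the PUM decrease of the 94 evenly. The median PUM ratio of these members was -0.72 in replicate 1, -0.56 in replicate 2 and -1.15 in replicate 3, while the medians over all transcripts were -0.01, 0.04 and 0.00. Replicate 3 gave the lowest PUM ratio in 68 of the 94 (72.3%), replicate 1 in 22 and replicate 2 in 4. Among all 473 transcripts that met the PUM side of the rule, replicate 3 gave the ratio of the largest size in 40.8%. The median BRAT ratios of the same 94 members were 1.20, 1.14 and 1.11.

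In the 94, the PUM RIP signal of replicate 3 had a median difference of -0.48 from the mean of replicates 1 and 2, and the control signal one of -0.01. Over all transcripts the PUM RIP difference was -0.02. Among the 1391 transcripts that were higher with BRAT, this difference was -0.32, with -0.13 for the control signal, and the PUM ratio of replicate 3 was below the mean of the other replicates in 67.2%, against 80.9% of the 94. The shift was therefore found in the larger BRAT list as well. The median SD of the PUM RIP signal was 0.41 in the 94, against 0.28 over all transcripts. Replicate 3 carried Cy5 in the RIPs and in the controls, so the dye cannot be told apart from the replicate. The part of the dye in this was not tested. Applying the rule to the PUM ratios of replicates 1 and 2 only, with all BRAT replicates kept, gave 69 transcripts in the first direction and 61 in the second, an alternative chosen after seeing the data. With replicate 3 left out of both RIPs the first direction held 67 transcripts, 51 of them among the 94.

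The 55 had their largest PUM ratios most often in replicate 1. Their median PUM ratios were 1.07, 0.77 and 0.93 in replicates 1, 2 and 3, and their median BRAT ratios were -0.78, -0.84 and -0.66. The largest PUM ratio fell in replicate 1 in 31 members (56.4%), in replicate 2 in 9 and in replicate 3 in 15. Among all 745 transcripts that were higher with PUM, replicate 1 gave the ratio of the largest size in 45.6%.

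**Figure D3:**
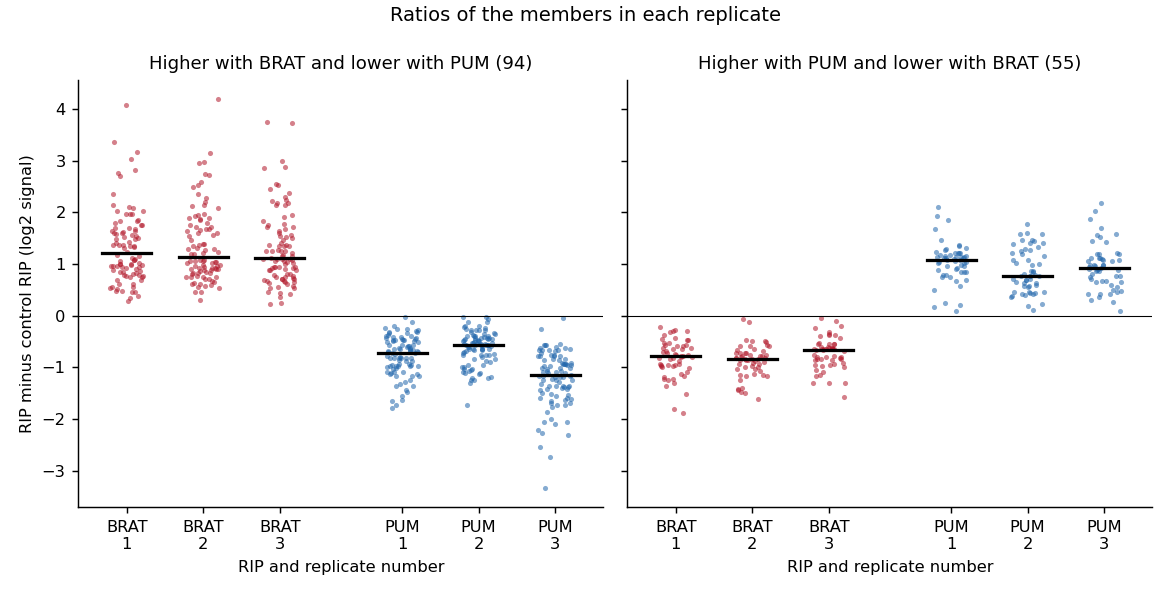
Ratio of each member in each replicate (y axis, log2 RIP minus control RIP of the same number), by RIP and replicate number (x axis), for the 94 members at the left and the 55 at the right, with a bar at the median. The PUM ratios of the 94 have medians of -0.72, -0.56 and -1.15 in replicates 1, 2 and 3, so replicate 3 lies lowest, while the other medians of a RIP lie closer together.

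Counted in single replicates, 83, 88 and 84 of the 94 members had a BRAT ratio past 1.5-fold in replicates 1, 2 and 3, and 72 had it in every replicate. For the PUM ratio these counts were 61, 41 and 88, and 28 members passed in every replicate. Of the 55, the PUM ratio passed in 49, 39 and 44 members and in every replicate in 29, and the BRAT ratio passed in 40, 45 and 40 and in every replicate in 21. Most members therefore had at least 1 replicate under 1.5-fold on the PUM side in the 94 and on the BRAT side in the 55.

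A replicate that had no part in the choice was read by applying the rule to 2 replicate numbers and looking at the third. In both directions a higher share of kept signs than over all transcripts was likely in advance, as the choice took transcripts past 1.5-fold. The difference was not tested, and the sets chosen this way are not the member lists. With replicate 1 left out, 121 transcripts were chosen as higher with BRAT and lower with PUM, and 105 of them (86.8%) had both signs in replicate 1, where 14.6% of all transcripts had them. With replicate 2 left out the counts were 115 of 132 (87.1%, against 15.2% of all transcripts), and with replicate 3 left out 61 of 67 (91.0%, against 17.8%). The sign lost was mostly that of PUM: the BRAT sign was kept by 121 of 121, 130 of 132 and 67 of 67. The median ratios in the replicate left out were 1.41, 1.30 and 1.16 for BRAT and -0.49, -0.43 and -0.86 for PUM.

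In the other direction 46 of 54 (85.2%), 65 of 74 (87.8%) and 68 of 79 (86.1%) kept both signs with replicates 1, 2 and 3 left out, where 23.6%, 23.6% and 24.6% of all transcripts had these signs. The PUM sign was kept by 52, 72 and 75 and the BRAT sign by 48, 67 and 72. The median ratios in the replicate left out were 1.07, 0.69 and 0.89 for PUM and -0.63, -0.73 and -0.55 for BRAT, so that a typical chosen transcript was near 1.5-fold on its BRAT side in a replicate the choice had not used.

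**Figure D4:**
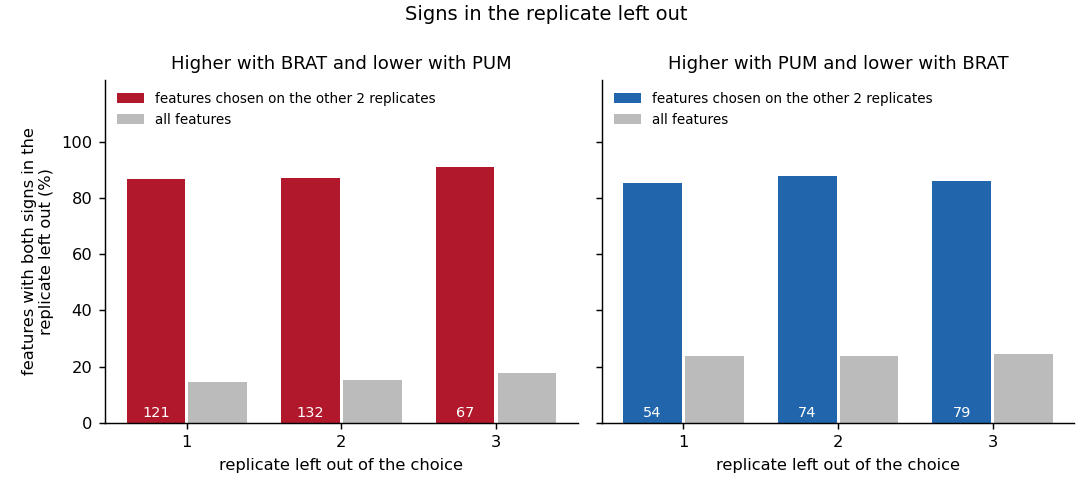
Share of transcripts (y axis, percent) with both signs of the direction in the replicate left out (x axis), for transcripts chosen on the other 2 replicates (coloured bars, their number printed in white) and for all 7186 (grey bars), in each direction. The coloured bars reach 85.2% to 91.0% and the grey bars 14.6% to 24.6%. A gap was likely in advance, as the choice took transcripts past 1.5-fold, and it was not tested.

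Some members have neighbouring identifiers. Identifiers that differ by 1 were both members in 3 pairs of the first direction and in 2 of the second, and whether such a pair belongs to the same gene, and shares probes, cannot be read from the array table. The methods mention a description file of the array that holds FlyBase gene identifiers, which was not used here. FBtr0079331 and FBtr0079332 had mean BRAT ratios of 0.81 and 1.01 and mean PUM ratios of -1.08 and -1.09. FBtr0083199 and FBtr0083200 had 0.92 and 0.86 for BRAT and -0.68 and -0.86 for PUM, and FBtr0089481 and FBtr0089482 had 1.03 and 1.24 for BRAT and -0.71 and -0.73 for PUM. In the second direction FBtr0080392 and FBtr0080393 had PUM ratios of 0.71 and 0.70 beside BRAT ratios of -0.99 and -1.38, and FBtr0086747 and FBtr0086748 had PUM ratios of 0.77 and 0.90 beside BRAT ratios of -1.21 and -1.17. FBtr0079884 and FBtr0079885 were members of opposite directions, with PUM ratios of 0.63 and -0.91 beside BRAT ratios of -0.77 and 2.19.

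Most other neighbours did not share both signs. Of the measured neighbours that were not members of the same direction, 18 of 82 in the first direction and 13 of 54 in the second had mean ratios of the same 2 signs as the member beside them. In single replicates, 14.6% to 17.8% of all transcripts had the signs of the first direction and 23.6% to 24.6% those of the second. Nothing about neighbours is read from these counts. Among the neighbours with the same 2 signs were some of named members, which fell short of the limit in at least 1 RIP. FBtr0078708, next to FBtr0078709, had a mean BRAT ratio of 0.01 and a mean PUM ratio of -0.94. FBtr0073826 and FBtr0073828, on either side of FBtr0073827, had 1.98 and 0.23 for BRAT and -0.33 and -0.23 for PUM. FBtr0081497, next to FBtr0081498, had 0.49 for PUM and -0.51 for BRAT. FBtr0084663, next to FBtr0084664, had 0.02 for PUM and -0.55 for BRAT. Of the 94, 65 had a measured neighbour on either side, and of the 55, 39 had.

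Transcripts lay close to the limit of 1.5-fold on both sides. Just inside it stood FBtr0075251 (BRAT 0.59, PUM -1.36) and FBtr0072429 (BRAT 0.59, PUM -0.89), and just outside FBtr0070390 (BRAT 1.63, PUM -0.58) and FBtr0088464 (BRAT 2.07, PUM -0.58). In the other direction FBtr0077112 (PUM 1.19, BRAT -0.59) and FBtr0080287 (PUM 0.59, or 0.29 without replicate 3, BRAT -0.89) were inside, and FBtr0084257 (PUM 0.79, BRAT -0.58) and FBtr0085906 (PUM 4.26, BRAT -0.58) outside. FBtr0085906 missed membership by its BRAT ratio alone, with an SD of 0.66 in that ratio.

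A further 7 transcripts passed both limits in the first direction and 4 in the second but had a replicate of the other sign. In 5 of the 7 the PUM decrease came mainly from replicate 3: FBtr0082484 had PUM ratios of 0.19, 0.13 and -2.53, FBtr0083804 had 0.15, -0.32 and -2.10, FBtr0073522 had -0.20, 0.01 and -2.06, FBtr0071313 had -0.55, 0.09 and -1.77, and FBtr0078094 had 0.19, -0.34 and -1.67. FBtr0073522 also had a BRAT ratio of -0.28 in replicate 3. FBtr0111302 varied most, with PUM ratios of -6.08, -4.48 and 4.81 and BRAT ratios of 0.16, 0.11 and 4.12. Its means of -1.92 for PUM and 1.46 for BRAT describe none of its replicates. These 6 were picked for naming after their values were seen.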

How the data were processed

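RNA from 3 BRAT RIPs, 3 PUM RIPs and 3 control RIPs was labelled and hybridized to custom NimbleGen arrays. The deposited values are log2 signals per transcript that the authors made with NimbleScan and the RMA quantile method in ArrayStar, each RIP normalized together with a copy of the controls, so ratios are relative to the bulk of a set and values were compared only within a set. The base of the logarithm was taken from the range, as the highest value was 15.99. The annotation release behind the array's transcripts is not stated for the array, and no coordinates were used. Per the methods, the authors kept transcripts expressed in embryos of this age. Of 17130 rows, 9944 hold no value and 7186 hold all 12, and these were used. The sources do not say which 2 samples were on the same array, so the array could not enter a fit, and the number of arrays limits the precision.

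Samples were grouped by their labels, with replicates paired by number as in the study's paired test. Deviations from the group means of same-numbered RIP and control columns correlated at 0.297 to 0.532. The rule was applied to the paired ratios, and limma 3.58.1 (R 4.3.3; lmFit, eBayes, two-sided, Benjamini-Hochberg over the 7186) was fitted for each RIP with the number as a block, after it was tested on simulated data. With 200 transcripts changed in the simulation, the fit found 95% of the 2-fold changes for BRAT and 92% for PUM. Of its calls, 5.34% for BRAT and 9% for PUM fell on unchanged transcripts. Recovery at 1.5-fold, the limit of the rule, was not tested, so these shares do not describe members near that limit. Named members are, in each direction, the 12 with the largest smaller ratio, the 4 with the largest distance between ratios and the 2 nearest to the limit, with the 2 nearest outside. Neighbouring identifiers and transcripts with a replicate of the other sign were named after their values were seen. The members and lists were chosen with earlier results of these data known. RefSeq synonyms held identifiers of 37 measured transcripts. The alternatives were other scalings, other replicate handling, a 2-fold limit, no dim transcripts, no sign rule and other variance priors. The BRAT and PUM ratios use the same control preparations.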

Additional observations from a re-analysis of the deposited data

Results flagged for a closer look

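The 94 transcripts higher with BRAT and lower with PUM, and the 55 higher with PUM and lower with BRAT, were flagged for their signs. Every replicate of 1 RIP moved one way against its control and every replicate of the other RIP moved the opposite way. The rule that selected them requires exactly this, so both numbers describe the choice, and the difference between the RIPs was not tested. The 94 were 6.76% of the transcripts higher with BRAT, while 6.58% of all transcripts were lower with PUM. The 55 were 7.38% of those higher with PUM, while 21.2% of all transcripts were lower with BRAT.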

How the results depend on the processing

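With each replicate centred on its median, 94 of the 94 stayed members and 32 of the 55 did, and the counts were 107 and 32. Cyclic loess gave 104 and 37. One quantile distribution over all 9 preparations gave 146 and 58, with 82 and 40 of the members still in. Leaving out a replicate gave 67 to 132 and 54 to 79, and ratios to the mean of the 3 controls, with no replicate block, gave 94 and 58 (92 and 54 shared). A limit of 2-fold kept 13 and 0. Leaving out the dimmest 25% gave 87 and 45, which were all the members still measured. Dropping the rule on single replicates gave 101 and 59, adding the 7 and 4 transcripts with a replicate of the other sign. These changes, and that with the stricter limit, follow from the settings. The cause of the other changes was not tested.

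The members called by limma in both RIPs, 45 and 36, moved most. They were 57 and 22 after centring, 74 and 38 with one distribution, 9 and 6 with no replicate block, 10 and 0 at 2-fold (where no transcript of the second direction met the rule), 80 and 43 without dim transcripts and 78 and 49 with a trended and robust prior. Leaving out a replicate gave 1 to 37 and 7 to 32. Calls over all transcripts moved as well. The PUM RIP was called lower in 279 after centring, 411 with one distribution, 77 at 2-fold and 408 with that prior, against 257. It was called higher in 496, 504, 282 and 601, against 500. The BRAT RIP was called lower in 1036 after centring, against 1519. Without dim transcripts, the PUM calls were 391 lower and 458 higher. The cause was not tested.

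The share of transcripts that kept both signs in the replicate left out, 87.8% over 320 choices and 86.5% over 207, was 90.2% and 66.7% at 2-fold (51 and 3 choices), 88.7% and 83.3% after centring and 87.5% and 89.1% with no replicate block. Under the 3 other scalings, 16 of 186 mean ratios of the 31 named members moved by more than their SD and 0 changed sign. Leaving out a replicate cannot turn a sign that the rule fixed. Without replicate 3 the mean PUM ratio was -0.39 in FBtr0078010 (-1.01 with it), -0.90 in FBtr0072225 (-1.71), 0.29 in FBtr0080287 (0.59) and 0.59 in FBtr0084555 (0.96). Without replicate 1 the mean BRAT ratio was -0.60 in FBtr0083083 and -0.55 in FBtr0083740 (-0.87 with it). The depth behind a signal is unknown, background and saturation were not assessed here, and 3 replicates limit every SD.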
